A study of Arabidopsis thaliana with 20 samples.

Results

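ARR3 (AT1G59940) and ARR5 (AT3G48100) are type-A response regulators of Arabidopsis thaliana, and their transcripts were followed in roots that lacked different sets of the type-B response regulators ARR1, ARR10, and ARR12, and in WT roots given cytokinin (CK). Both genes were chosen by name. Since the scanner files give probe names only, the probe of each gene was found by matching its row of fold changes in the study's gene table to the deposited log2 table, which gave 1 spot for each gene. These 2 genes are among 2072 that could be paired with a probe in this way, on an array of 43603 probes. ARR3 was read by probe A_84_P14254 on 2 spots and ARR5 by probe A_84_P10862 on 1 spot. Both probes were well above background on all 20 arrays, and none of their spots was marked as an outlier by the scanner software.

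Cytokinin is sensed by histidine kinase receptors, and the phosphoryl group passes through phosphotransfer proteins to response regulators in the nucleus. Type-B regulators such as ARR1, ARR10, and ARR12 carry a receiver domain and a Myb-like DNA-binding domain and activate transcription, and type-A genes are among their best known primary targets. Type-A regulators have a receiver domain without that DNA-binding domain and act as negative regulators of the same pathway, so their induction forms a feedback loop. ARR5 is widely used as a reporter of cytokinin signalling in the root, and ARR3 is most similar in sequence to ARR4, as ARR5 is to ARR6.

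All groups were seedlings grown for 10 days on vertical agar plates in continuous light at constant temperature. The WT groups were Col-0 by their labels, which name no accession for the mutants. Total RNA came from roots cut near the junction with the hypocotyl. The 7 mutant groups were the triple mutant arr1/10/12, the double mutants arr10/12, arr1/12, and arr1/10, and the single mutants arr12, arr10, and arr1, all untreated and set against untreated WT, with 2 arrays in each group. Each gene was represented by a T-DNA line (arr1-3, arr10-5, and arr12-1), so each locus was tested with a single allele, and arr1/10, arr10/12, and arr1/10/12 were seed stocks from another laboratory. In a separate experiment, WT seedlings treated for 1 hour with 5 μM N6-benzyladenine, a synthetic cytokinin, were set against mock-treated WT seedlings, also with 2 arrays each. The study asked whether a target needs 1 or several of the duplicated type-B regulators. Values are log2 signals after background subtraction and quantile normalization across the 20 arrays, and a level of one probe is not comparable with that of another.

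The targeted genes followed the labels with 1 exception. The ARR1 probe read 12.27 and 12.52 on the arrays labelled arr1, against 11.99 and 12.01 in WT, so ARR1 mRNA was not reduced on those 2 arrays, while it read 7.58 to 8.28 on the 6 arrays of arr1/10, arr1/12, and arr1/10/12. The label arr1 is used below for those arrays as deposited, and ARR10 and ARR12 were lower in every group that carries their mutant allele. Between 71.8% and 78.8% of probes were well above background on each array, and the median log2 intensity before normalization was lowest on the arr1/10/12 arrays (8.65 and 8.21, against 8.75 to 9.61 on the other 18 arrays). Untreated arrays of the same replicate number shared a slide and a scan day, whereas each mock-treated or CK-treated array had a slide of its own.

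ARR3 differed most from WT at the ends of its range. It was lowest in arr1/10/12, where it read 7.04 and 7.41, and highest in CK-treated WT, where it read 12.03 and 12.02. The remaining groups lay in between, with mock-treated WT (9.28 and 9.62) below all of the untreated groups except arr1/10/12. Among the other untreated groups, ARR3 ran from 10.11 ± 0.11 in arr1/12 and 10.22 ± 0.04 in arr1/10 to 10.58 ± 0.03 in arr1 (mean ± SD, n = 2 arrays). In this order, arr10/12, WT, arr12, and arr10 were neighbours whose arrays overlapped, so their order was not resolved.

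ARR5 had a wider range of levels among the groups. It read 8.61 and 8.79 in arr1/10/12, which was the lowest group, and 14.36 and 14.58 in CK-treated WT, which was the highest. Above arr1/10/12 came arr1/10 (10.71 and 10.58), arr1/12 (10.96 and 10.79), and arr1 (11.19 and 11.05), with no overlap between neighbours in this order. The arrays of arr12, mock-treated WT, arr10/12, arr10, and WT overlapped from each neighbour to the next, between 11.39 and 11.83. The plot of levels by group shows that the groups labelled arr1, arr1/12, and arr1/10 separate from the remaining untreated groups and the mock for ARR5. For ARR3, arr1/10 and arr1/12 lie below the other untreated groups that kept a type-B gene, and arr1 has the highest mean.

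**Figure D1:**
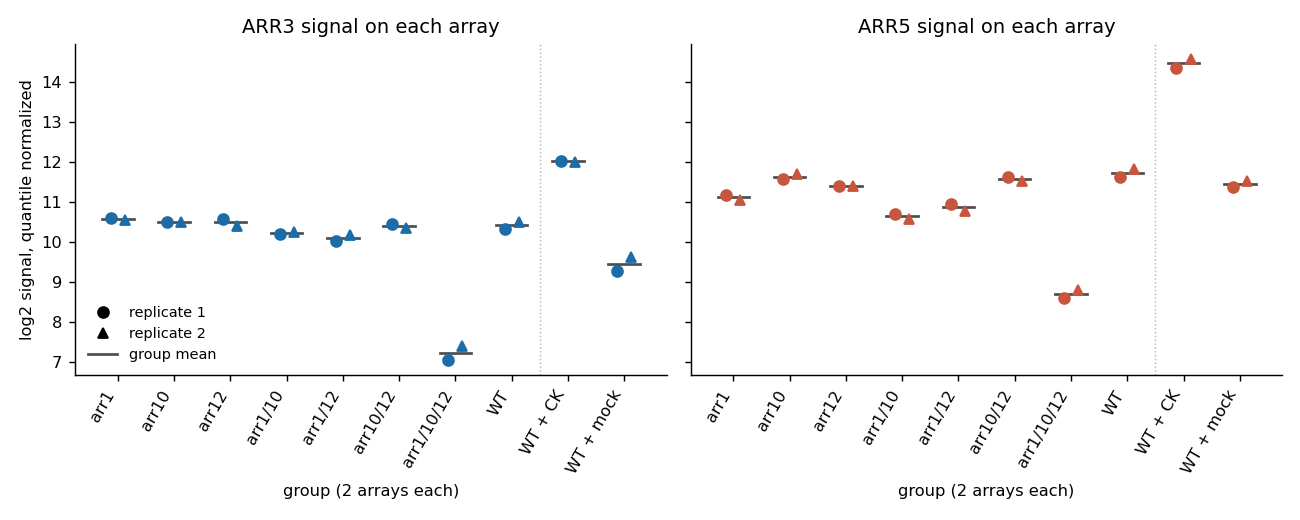
Log2 signal of ARR3 (left) and ARR5 (right) on each of the 20 arrays, by group, with circles for replicate 1, triangles for replicate 2, and bars for the mean of 2 arrays; the dotted line separates the untreated groups from the CK experiment. Both genes are lowest in arr1/10/12 and highest in CK-treated WT, and ARR5 but not ARR3 lies lower on both arr1 arrays than on both WT arrays.

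ARR5 was lower in both of the double mutants that lacked ARR1. In arr1/10 it read 10.71 and 10.58, against 11.64 and 11.83 in WT, which was 2.13-fold lower (log2 fold change −1.09, SE 0.11, limma adjusted p = 0.000639). In arr1/12 it read 10.96 and 10.79, which was 1.81-fold lower than in WT (log2 fold change −0.86, SE 0.11, limma adjusted p = 0.00295). Of all 34034 probes tested, 0.441% were called lower in arr1/10 and 1.37% in arr1/12. Neither mutant overlapped WT, and ARR5 was lower in both replicates when each was compared on its own slide (by 0.94 and 1.25 in log2 in arr1/10, and by 0.68 and 1.04 in arr1/12). In these bulk roots, fewer cells that express a gene and less RNA per cell cannot be told apart. When only the 4 arrays being compared were fitted, neither call held (adjusted p = 0.220 for arr1/10 and 0.173 for arr1/12).

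In arr1, ARR5 read 11.19 and 11.05, again below both WT arrays. The log2 fold change was −0.62 (SE 0.11) with a limma adjusted p of 0.0933, so it did not pass the threshold of 0.05, and with the replicate number as a block the adjusted p was 0.0363. It stood in 338th place from the lowest log2 fold change, and 0.0529% of probes were called lower. In arr12, ARR5 read 11.40 and 11.41, both below WT as well, but the log2 fold change of −0.33 (SE 0.11) did not pass the test (limma adjusted p = 0.359). In arr10 and arr10/12, the ARR5 log2 fold changes were −0.10 and −0.16 (limma adjusted p = 0.875 and 0.521). Calls were also rare over all probes in these mutants, with 0.0676% called lower in arr12, 0.0264% in arr10, and 0.0911% in arr10/12.

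ARR3 was not called in any of these 6 mutants. In arr1 its log2 fold change was 0.16, in arr10 it was 0.09, and arr12 had 0.07, with an SE of 0.13 for each (limma adjusted p = 0.743, 0.924, and 0.938). The 95% intervals of these differences were −0.13 to 0.46 in arr1, −0.20 to 0.38 in arr10, and −0.22 to 0.37 in arr12. In arr10 the interval holds the ARR5 log2 fold change of −0.10 in the same mutant. In arr1/10 ARR3 read 10.19 and 10.24, and in arr1/12 it read 10.04 and 10.19, against 10.32 and 10.52 in WT. All 4 of these arrays lay below both WT arrays, but the log2 fold changes of −0.20 and −0.31 did not pass the test (limma adjusted p = 0.423 and 0.242). In arr10/12 the ARR3 arrays read 10.45 and 10.35 and overlapped WT (log2 fold change −0.02, 95% interval −0.31 to 0.27).

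**Figure D2:**
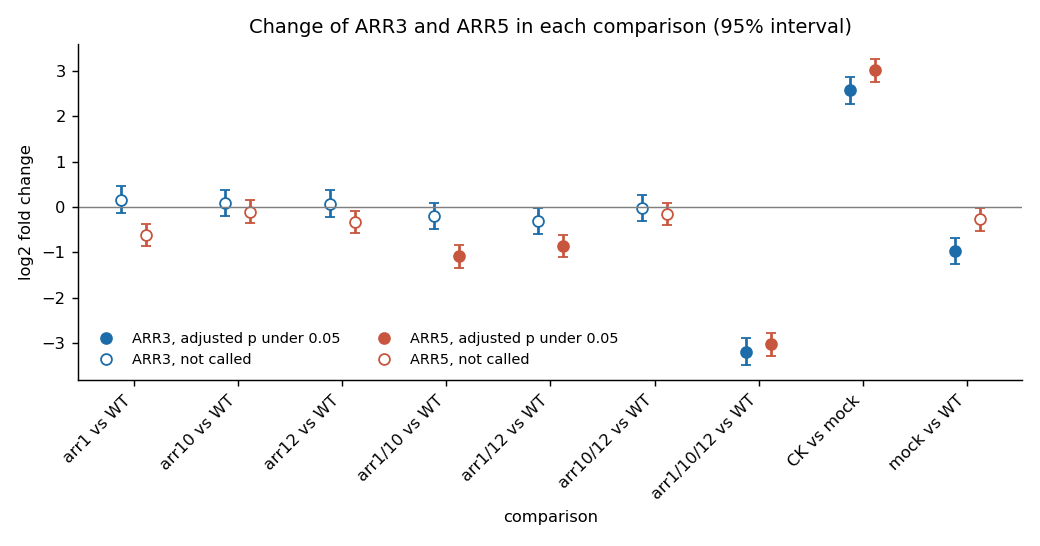
Log2 fold change of ARR3 (blue) and ARR5 (red) in each comparison, with the unadjusted 95% interval from limma; filled points have an adjusted p under 0.05 and open points do not. ARR5 is called lower in arr1/10 and arr1/12 and ARR3 in neither, and both change by about the same amount in arr1/10/12.

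When all 3 type-B genes were lost, both genes fell to their lowest level. ARR3 read 7.04 and 7.41 in arr1/10/12, against 10.32 and 10.52 in WT, and was 9.15-fold lower (log2 fold change −3.19, SE 0.13, limma adjusted p = 2.93e-09). ARR5 read 8.61 and 8.79 there, against 11.64 and 11.83 in WT, and was 8.19-fold lower (log2 fold change −3.03, SE 0.11, limma adjusted p = 1.12e-09). Within each slide the differences were −3.28 and −3.11 in log2 for ARR3 and −3.03 and −3.04 for ARR5. In the scanner's own units before normalization, ARR3 had intensities of 108 and 95 in arr1/10/12, against 1073 and 1126 in WT, over a local background of 17.5 to 23.5. ARR5 had 281 and 232 in arr1/10/12, against 2648 and 2851 in WT.

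These falls stood against a broad change in this mutant, in which 31.1% of probes were called lower. ARR3 was in 355th place and ARR5 in 431st place from the lowest log2 fold change, and the median over all probes was −0.08. Of the root markers, 2 of 8 could be paired with a probe, and both were lower in arr1/10/12 than in WT. Only genes that the study listed for a change in the mutants could be paired. The markers read here, for root and for green tissue, are therefore not an unselected sample, and unchanged markers could not appear. EXPA7, an expansin of root hair cells, read 11.19 and 11.91 in arr1/10/12 and 13.08 and 13.55 in WT, and APL, a regulator of phloem identity, read 3.18 and 5.03 in arr1/10/12, with the first array not well above background, and 6.47 and 6.89 in WT. LHCA3, a photosystem I antenna gene and the only one of 13 green tissue markers that could be paired, read 15.13 and 13.95 in arr1/10/12 and 12.30 and 12.46 in WT. Marker shifts were not limited to arr1/10/12. EXPA7 also lay below both WT arrays in arr1/10 (12.55 and 12.96), arr1/12 (12.61 and 12.77), and arr10/12 (12.80 and 13.01). LHCA3 lay above both WT arrays in arr1 (13.05 and 13.07), arr1/10 (12.64 and 12.96), arr1/12 (12.80 and 13.03), arr10, and arr12. The APL arrays of arr1/10 and arr1/12 lay between the WT arrays. The part of root composition or of green tissue in the falls of ARR3 and ARR5 in any mutant was not tested.

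The comparisons between mutants show at which step each gene changed. For ARR3, the step into arr1/10/12 was large whichever regulator was lost last, at −3.17 when ARR1 was lost last (arr1/10/12 versus arr10/12), −2.89 for ARR10 (versus arr1/12), and −2.99 for ARR12 (versus arr1/10), all in log2 with an SE of 0.13 and limma adjusted p values of 9.51e-09 or lower. For ARR5 the same steps were −2.88, −2.17, and −1.94 (SE 0.11, limma adjusted p values of 5.25e-08 or lower). All of these steps share the arr1/10/12 arrays, so for each gene their order only restates its level in the double mutants they start from. Whether the steps differ from each other was not tested. The last loss is named by the labels, and other type-B probes moved too. The ARR10 probe was lower in arr1/10/12 than in arr10/12 and arr1/10 (log2 fold changes −2.33 and −2.16, limma adjusted p = 9.49e-06 and 1.85e-05). The ARR12 probe was lower than in arr10/12 and arr1/12 (−1.61 and −1.21, limma adjusted p = 0.00025 and 0.00209). Neither probe was well above background on both arr1/10/12 arrays. The shares of probes called lower were 32.5%, 31.3%, and 31.9%, with both genes among them each time.

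Before the last step, ARR5 fell when arr1 was added to arr10. In arr1/10 it was lower than in arr10, with 10.71 and 10.58 against 11.57 and 11.69 (log2 fold change −0.99, SE 0.11, limma adjusted p = 0.00173, with 0.235% of probes called lower). In arr1/12 it read 10.96 and 10.79, against 11.40 and 11.41 in arr12, a log2 fold change of −0.53 (SE 0.11) that did not pass the test (limma adjusted p = 0.0601, or 0.0471 when the replicate number was a block). The share of probes called lower in that comparison was 0.382%. The arr1/10 seed stock came from another laboratory and the arr10 line did not. In arr1/10 versus arr10, seed source and the added allele therefore cannot be told apart. Averaged over the 3 steps that add the arr1 label and leave at least 1 of the other type-B genes intact, ARR5 fell by 0.71 in log2 (SE 0.07, limma adjusted p = 0.000178), and 1.41% of probes were called lower. In 1 of these steps, arr1 versus WT, the ARR1 probe was not lower (log2 fold change 0.40). Without the step that uses the arrays labelled arr1, the mean was −0.76 (SE 0.08, limma adjusted p = 0.000499).

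The corresponding mean for ARR3 was −0.17 (SE 0.08, limma adjusted p = 0.284), and −0.33 without the arrays labelled arr1 (SE 0.09, adjusted p = 0.0563). ARR3 in arr1/10 was 0.29 below arr10 and in arr1/12 0.38 below arr12 in the same unit, neither of which passed the test (log2 fold changes −0.29 and −0.38, limma adjusted p = 0.245 and 0.305). On all 4 of these arrays ARR3 was lower than on both arrays of the single mutant it was set against.

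The steps that add arr10 or arr12 moved neither gene past the threshold while another type-B gene was left. Those that start from arr1 are not losses of ARR10 or ARR12 alone, since the ARR1 probe itself fell by 4.18 in log2 in arr1/10 versus arr1 and by 4.51 in arr1/12 versus arr1 (limma adjusted p = 4.7e-10 and 1.9e-10). For ARR10 the mean of 3 steps was −0.14 for ARR5 and −0.12 for ARR3 (limma adjusted p = 0.354 and 0.465, with 0.0558% of probes called lower), and for ARR12 it was −0.21 for ARR5 and −0.17 for ARR3 (limma adjusted p = 0.0957 and 0.218, with 0.649% of probes called lower). Without the steps from arr1, the means of the 2 remaining steps were 0.03 for ARR5 and −0.0031 for ARR3 with arr10, and −0.19 for ARR5 and −0.02 for ARR3 with arr12 (limma adjusted p = 0.368 for ARR5 with arr12 and 0.968 or higher for the others). Of the single steps, ARR5 in arr1/10 read 0.48 below arr1 (log2 fold change −0.48, limma adjusted p = 0.101), and ARR3 was 0.37 below it (log2 fold change −0.37, limma adjusted p = 0.159), with 0.0793% of probes called lower. In arr1/12, ARR3 stood at −0.47 and ARR5 at −0.24 relative to arr1 in log2 (limma adjusted p = 0.178 and 0.365, with 0.256% of probes called lower). Neither gene was called in arr10/12 versus arr12 or versus arr10, where 0.0235% and 0.0382% of probes were called lower, and the log2 fold changes lay between −0.11 and 0.17. Whether the mean step of ARR1 differs from those of ARR10 and ARR12 was not tested.

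**Figure D3:**
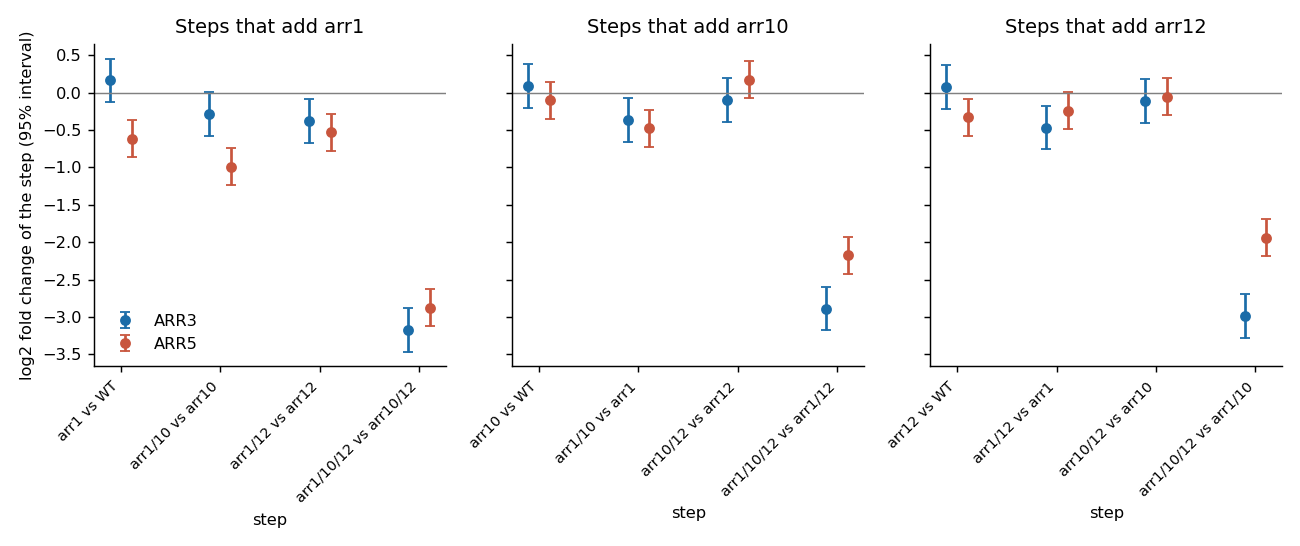
Log2 fold change of ARR3 (blue) and ARR5 (red) for each step that adds arr1 (left), arr10 (middle), or arr12 (right) by the labels, with unadjusted 95% intervals from limma; the last step in each panel ends in arr1/10/12. ARR3 stands between −3.17 and −2.89 in log2 at the last step of each panel, whereas ARR5 stands between −2.88 and −1.94 there.

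Neither gene behaved in arr1/10/12 as the sum of its changes in the single mutants as labelled. The sums for arr1/10/12, arr1/10, and arr1/12 all include the arrays labelled arr1, on which the ARR1 probe was not lower than in WT. The log2 fold change in arr1/10/12 was below that sum for ARR3 (difference −3.52, SE 0.27, limma adjusted p = 4.19e-06) and for ARR5 (difference −1.98, SE 0.23, limma adjusted p = 7.58e-05), and 17.9% of probes were called below their sum. In the double mutants no departure was called for either gene. For ARR5 it was −0.37 in arr1/10, 0.09 in arr1/12, and 0.28 in arr10/12 (limma adjusted p = 0.224, 0.896, and 0.522). For ARR3 it was −0.45, −0.54, and −0.18 in the same order (limma adjusted p = 0.212, 0.344, and 0.746), and 0.0529%, 0.0558%, and 0.0264% of probes were called below their sum in these mutants.

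Because a call for one gene and not for the other does not show that they differ, the log2 difference ARR5 minus ARR3 was compared between arrays. On the 6 arrays of arr1, arr1/10, and arr1/12 it ran from 0.34 to 0.92 with a median of 0.55, and on the 8 arrays of WT, arr10, arr12, and arr10/12 it ran from 0.82 to 1.32 with a median of 1.18. The mean was 0.56 lower on the 6 arrays of the groups whose labels carry arr1 (difference −0.56, two-sided exact permutation test, p = 0.00133), and the difference was −0.54 without the arrays labelled arr1 (p = 0.00808, exact permutation test). These tests exchange single arrays, although the 2 arrays of a genotype belong together. Over the 7 genotype means, 3 against 4, every mean of the 3 lay below every mean of the 4, and the exact permutation test gave p = 0.0571, which is the smallest it can give. Only 1 arr1/12 array, at 0.92, overlapped the other set, which included an arr12 array at 0.82. ARR5 itself was lower on all 6 of these arrays (10.58 to 11.19) than on any of the 8 others (11.40 to 11.83), whereas ARR3 ran from 10.04 to 10.61 on the 6 arrays and from 10.32 to 10.58 on the 8 others. The ARR3 overlap came from the arrays labelled arr1, as the 4 arrays of arr1/10 and arr1/12 (10.04 to 10.24) lay below all 8. For arr1/10/12 against WT alone the difference changed by 0.16, and in designs of 2 against 2 arrays the smallest p that an exact permutation test can give is 0.333.

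**Figure D4:**
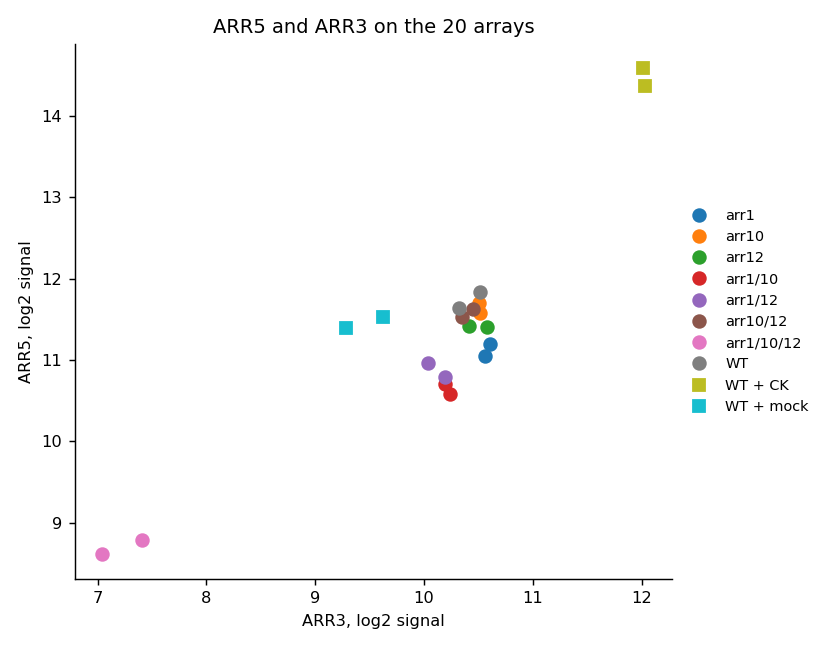
ARR5 against ARR3, both in log2 signal, on the 20 arrays, with circles for untreated groups and squares for the CK experiment. The arr1/10/12 arrays lie lowest and the CK arrays highest on both axes; in the middle, the arr1, arr1/10, and arr1/12 arrays lie below the other untreated arrays on the ARR5 axis, and the mock-treated arrays lie to the left.

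Treatment with CK for 1 hour raised both genes in WT roots. ARR5 read 14.36 and 14.58 in CK-treated WT, against 11.39 and 11.53 in mock-treated WT, which was 8.06-fold higher (log2 fold change 3.01, SE 0.11, limma adjusted p = 4.82e-08). ARR3 read 12.03 and 12.02, against 9.28 and 9.62 in mock-treated WT, and was 5.95-fold higher (log2 fold change 2.57, SE 0.13, limma adjusted p = 5.57e-07). Both genes were above mock-treated WT in both replicates, by 2.97 and 3.05 in log2 for ARR5 and by 2.75 and 2.40 for ARR3. They were in 48th place (ARR5) and 86th place (ARR3) from the highest log2 fold change, in a comparison that called 3.54% of probes higher. The increase was 0.44 larger in log2 for ARR5, a difference that 2 arrays against 2 could not test below p = 0.333 (exact permutation test). Each CK-treated and mock-treated array had a slide of its own, so treatment and slide cannot be told apart in this comparison.

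The size of the ARR3 response depended on the control. ARR3 was lower in mock-treated WT than in untreated WT, with 9.28 and 9.62 against 10.32 and 10.52 (log2 fold change −0.97, SE 0.13, limma adjusted p = 0.000390), in a comparison that called 8.59% of probes lower. The call did not hold in a fit on these 4 arrays alone (adjusted p = 0.0827). Set against untreated WT, the log2 fold change of CK-treated WT was 1.60 for ARR3 (SE 0.13, limma adjusted p = 6.86e-06). ARR5 read 11.39 and 11.53 in mock-treated WT, against 11.64 and 11.83 in untreated WT, which did not pass the test (log2 fold change −0.27, SE 0.11, limma adjusted p = 0.131), and its CK response against untreated WT was 2.74 in log2. The root hair marker EXPA7 was also lower in mock-treated WT (11.86 and 12.33) than in untreated WT (13.08 and 13.55), with a limma adjusted p of 0.00503, and its part in the ARR3 difference was not tested. The mock-treated arrays lay on slides of their own, so treatment and slide cannot be told apart here.

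Of the 10 type-A genes, 8 could be paired with a probe and were tested, and ARR8 and ARR9 were not analysed here. The study listed these genes for their change in the mutants, so their counts in the mutants are not independent evidence, but the CK comparison took no part in that choice. In arr1/10/12 all 8 were called lower, where their log2 fold changes had a median of −3.46, and with CK all 8 were called higher, with a median of 2.82, against medians of −0.08 and 0.03 over all probes, of which 31.1% were called lower in arr1/10/12 and 3.54% higher with CK. ARR15, ARR16, and ARR17 were not well above background in arr1/10/12, and with these at their bound (the lowest signal well above background on an array, or their own where higher) the median there was −3.44. In arr1/12, 5 of the 8 were called lower and in arr1/10, 3 (ARR5, ARR7, and ARR16), with medians of −0.85 and −0.92 that were the same with dim genes at their bound, where 1.37% and 0.441% of all probes were called lower. In arr1 only ARR7 was called lower, with 0.0529% of all probes called, and none was called in arr10, arr12, or arr10/12. No type-A gene was called in arr1 under 75th percentile scaling, separate normalization, or a fit on 4 arrays, nor in 14 of the 20 fits that left out an array. With the replicate block the counts were 2 in arr1, 5 in arr1/10, and 7 in arr1/12.

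Set beside its closest relative ARR4, ARR3 had larger log2 fold changes at both ends. ARR4 read 11.55 and 11.89 in arr1/10/12 and 14.09 and 14.52 in WT (log2 fold change −2.58, SE 0.19, limma adjusted p = 2.28e-07), and its log2 fold change with CK was 1.81 (SE 0.19, limma adjusted p = 7.17e-05), compared with −3.19 and 2.57 for ARR3. In arr1/10 and arr1/12, ARR4 had log2 fold changes of −0.76 and −0.67 that did not pass the test (limma adjusted p = 0.0690 and 0.0790). ARR6, the closest relative of ARR5, read 7.96 and 8.57 in arr1/10/12 and 11.79 and 12.13 in WT (log2 fold change −3.69, SE 0.23, limma adjusted p = 6.01e-08), and its log2 fold change with CK was 2.28 (SE 0.23, limma adjusted p = 5.64e-05). Unlike ARR5, ARR6 was not called in arr1/10 or arr1/12 (log2 fold changes −0.76 and −0.84, limma adjusted p = 0.105 and 0.0719), and like ARR3 it was called lower in mock-treated than in untreated WT (log2 fold change −0.90, limma adjusted p = 0.0169). The differences between relatives were not tested. The SE of ARR6 and ARR4 was larger than that of ARR5.

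ARR7 shared the calls of ARR5 in the mutants and with CK, and also passed in arr1. That arr1 call was lost in 14 of the 20 fits that left out an array. It was lower in arr1/10 and arr1/12 (log2 fold changes −1.08 and −0.76, limma adjusted p = 0.00140 and 0.0108), in arr1 (−0.83, limma adjusted p = 0.0341), and in arr1/10/12 (−4.85, SE 0.13), and it was higher with CK (2.63, SE 0.13). ARR15, ARR16, and ARR17 had the highest CK responses of the 8, with log2 fold changes of 4.65 to 5.87, and were not well above background on either arr1/10/12 array, so their falls there are not given as folds. The ARR17 probe was also dim in the reference of the CK comparison, being well above background on only 1 of the 2 mock-treated arrays. ARR15 stood apart from ARR5 in arr1/10, with a log2 fold change of 0.36 that did not pass the test (limma adjusted p = 0.445).

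**Figure D5:**
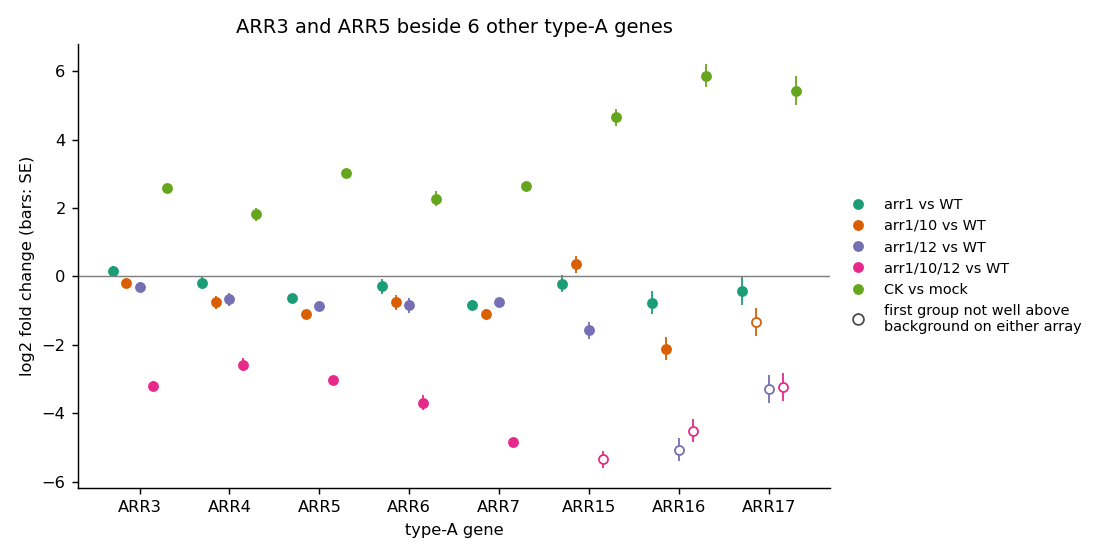
Log2 fold change (bars, SE from limma) of ARR3, ARR5, and 6 other type-A genes in arr1, arr1/10, arr1/12, and arr1/10/12 versus WT and in CK-treated versus mock-treated WT; open points mark genes whose probe was not well above background on either array of the mutant. All 8 genes lie below 0 in arr1/10/12 and above 0 with CK, and ARR3 lies closest to 0 in arr1/10 and arr1/12.

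Upstream and downstream of the type-A genes, few members of the pathway could be paired with a probe. Beyond ARR1, ARR10, and ARR12, a list of 30 cytokinin genes (receptors, phosphotransfer proteins, other type-B genes, type-A genes, and cytokinin oxidases) had 11 that were tested, which were the 8 type-A genes, the receptor WOL, and the oxidases CKX3 and CKX5. All 11 were called lower in arr1/10/12 (31.1% of all probes) and higher with CK (3.54%), with the same reservation on how the study chose them. WOL, which is a cytokinin receptor, had smaller log2 fold changes than ARR3 and ARR5, though the difference was not tested, at values of −1.03 (SE 0.16) in arr1/10/12 and 1.40 (SE 0.16) with CK. CKX3 and CKX5, which break cytokinin down, had log2 fold changes of −2.84 and −2.77 in arr1/10/12 and 3.42 and 2.73 with CK.

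The probes most like ARR3 and ARR5 were ranked by the correlation of log2 signal over arrays, among 29085 other probes that were well above background on all arrays. Over the 20 arrays, ARR5 was most like CKX5 (r = 0.982), AT5G51780 (0.980), the germin-like gene GLP7 (0.979), CKX3 (0.975), and the cytochrome P450 gene CYP87A2 (0.973). ARR3 was most like AT1G30280 (r = 0.986), ARR6 (0.981), the unpaired probe A_84_P14725 (0.981), AT5G62420 (0.977), and AT2G20080 (0.976). The correlation of ARR3 with ARR5 was 0.891, which put ARR5 in 311th place for ARR3. These values rest largely on the arr1/10/12 and CK arrays, which are extreme for each of these genes.

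Over the 16 arrays without arr1/10/12 and CK, the correlation between ARR3 and ARR5 was 0.127, and ARR5 was in 12697th place for ARR3. ARR5 was then most like the patatin-like gene PLP4 (r = 0.933), AT4G02850 (0.930), the unpaired probe A_84_P837979 (0.920), ASL9 (0.912), and the unpaired probe A_84_P837201 (0.910), with ARR7 in 26th place (0.864). ARR3 was most like UCC3 (r = 0.986), the P-type cyclin gene CYCP4;3 (0.977), AT1G02030 (0.976), FLA6 (0.972), and the unpaired probe A_84_P11969 (0.970), and its correlation with ARR6 was 0.747. ARR3 was lowest on the mock-treated arrays in this set, which are separate slides, so these correlations are descriptions across arrays that share batches and are given without a test.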

How the data were processed

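Root RNA was labelled with Cy3 and hybridized to 20 one-colour Agilent arrays, 2 per group, grouped by the labels of the samples. The authors deposited scanner output of Agilent Feature Extraction for each array, with an intensity per spot after background subtraction, the median pixel intensity, the background around the spot, and software flags for outlying spots and for signal well above background. A deposited log2 table was recovered from the scanner files by quantile normalizing the median intensity, untreated and treated arrays apart (largest difference 5e-09). Genes were paired with probes by matching fold changes of that table to the study's gene table within 0.0005. The numbers in the gene table served for identity alone.

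Background-subtracted intensities of 61657 non-control spots were put on the log2 scale and quantile normalized together. Outliers were dropped (1 to 386 spots per array), none was saturated, and spots of a probe were averaged. Probes had to be well above background on both arrays in 1 or more groups, and the 34034 that were entered a limma fit (version 3.58.1, R 4.3.3, lmFit with eBayes, 1 coefficient per group, 10 residual and 2.11 prior degrees of freedom), with Benjamini-Hochberg adjustment over all of them within each of 25 comparisons and a threshold of 0.05. Steps, means of 3 steps, and departures from sums of single mutants were contrasts of that fit. ARR5 minus ARR3 was tested with exact permutation tests (scipy 1.17.1). The fit was tested on simulated data with independent errors. That simulation does not cover deviations that arrays of the same replicate number share. Precision is limited by having 2 arrays per group, which the methods call biological replicates.

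The genes named are ARR3 and ARR5, the 3 type-B genes lost in the mutants, the other type-A genes that could be paired, pathway and marker lists, and the 5 probes most correlated with each member. The members and lists were chosen with earlier results of these data known. Replicate numbers were checked for pairing: deviations from the group means correlated in all 28 pairs of untreated groups (0.17 to 0.52), as these arrays share slides and scan days. Alternatives were 75th percentile scaling, normexp background correction (offset 50, on the median intensity, since a mean signal column was not used here), the authors' table, other filters, a replicate block, separate normalization and fits, array weights, a Student's t-test, and leaving out each array. Probe sequences and genome coordinates were not used, so cross-hybridization between relatives was not tested.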

Additional observations from a re-analysis of the deposited data

Results flagged for a closer look

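For both genes, the effect of losing a type-B regulator differed with the background in which it was lost, by a test of the difference within the limma fit. The log2 fold change in arr1/10/12 departed from the sum of the 3 single mutants by −3.52 for ARR3 (SE 0.27, limma adjusted p = 4.19e-06) and by −1.98 for ARR5 (SE 0.23, limma adjusted p = 7.58e-05). Both arr1/10/12 arrays lay below every other array for each gene. The sum includes the arrays labelled arr1, on which the ARR1 probe was not lower than in WT, and its part in these departures was not tested.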

How the results depend on the processing

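Both genes kept their direction in arr1/10/12 and with CK under every alternative tried, and passed the threshold under all but a Student's t-test with Benjamini-Hochberg adjustment. Under that test the changes of −3.19 and −3.03 in arr1/10/12 had adjusted p = 0.0775 for ARR3 and 0.0701 for ARR5, the changes of 2.57 and 3.01 with CK had 0.182 and 0.179, the ARR5 changes of −1.09 in arr1/10 and −0.86 in arr1/12 had 0.336 and 0.430, and the ARR3 change of −0.97 in mock-treated WT had 0.273. No type-A gene was then called in arr1, arr1/10, arr1/12, arr1/10/12, or with CK (0 in each). A fit on the 4 arrays of a comparison ended the same ARR5 calls in arr1/10 and arr1/12 (adjusted p = 0.220 and 0.173) and that of ARR3 in mock-treated WT (0.0827), and left 0, 0, and 1 type-A genes called in arr1, arr1/10, and arr1/12. Fewer arrays enter both of these tests. The Student's t-test run here is only a part of the study's own method. That method took p-values from permutations and combined those of a t-test with those of a log2-median-ratio test, and it was not run here.

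With the replicate block, ARR5 in arr1 (−0.62) passed (adjusted p = 0.0363), as did ARR5 in arr1/12 versus arr12 (0.0471), and 2 type-A genes were called in arr1 and 5 in arr1/10, with the same counts over the longer cytokinin list, while in arr1/12 the block called 7 instead of 5 and, over the longer list, 8 instead of 6. The block changed no other call of ARR3 or ARR5. Over all probes it called 69 lower in arr1 instead of 18, 694 in arr1/10 instead of 150, and 1161 in arr1/12 instead of 467. Under 75th percentile scaling the ARR3 change in arr10/12 turned sign, to 0.0195, and no gene of the type-A or longer list was called in arr1 (0). Separate normalization and fits also left 0 in arr1, and normexp and the authors' table each called 1 type-A gene in arr10/12. ARR5 in arr1/12 versus arr12 passed under 75th percentile scaling, normexp, and the authors' table (adjusted p = 0.0473, 0.0189, and 0.0218). With array weights, ARR3 passed in arr1/10 and arr1/12 versus arr1 (0.0297 and 0.0230), and ARR5 in arr1/10 versus arr1 (0.0192). The cause of these shifts was not tested.

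Leaving out each array in turn, changes of ARR3 near 0 turned sign. They ran from −0.00799 to 0.18 in arr10, from −0.0215 to 0.17 in arr12, and from −0.12 to 0.0762 in arr10/12. The ARR5 change in arr1 ran from −0.71 to −0.52, and it passed without either arr1/10/12 replicate (adjusted p = 0.0447 each). ARR5 in arr1/12 versus arr12 also passed then (0.0423 each), and 2 small differences of ARR5 turned sign, its departure from the sum in arr1/12 (−0.00691 to 0.18) and arr10/12 versus arr10 (−0.12 to 0.00675). The count of type-A genes called lower ran from 0 to 2 in arr1, from 2 to 4 in arr1/10, and from 4 to 6 in arr1/12. The ARR5 minus ARR3 difference ran from −0.63 to −0.51. Chosen after seeing the data, an exact permutation test of this difference over genotype means (−0.56) gave p = 0.0571, the smallest that 3 means against 4 allow, and without the arrays labelled arr1 the mean ARR5 step of arr10 turned sign, to 0.0346. The medians with dim genes at their bound, the comparisons without the arrays labelled arr1, and CK against untreated WT were also chosen after seeing the data.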

Other observations

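The 2 spots of the ARR3 probe differed by a median of 0.06 in log2 over the 20 arrays, and at most by 0.21, on an arr1/10/12 array. The ARR5 probe lies on a single spot, so no such comparison was possible for it. For the Student's t-test at a p of 0.05 without adjustment, ARR5 passed in arr1, arr1/10, arr1/12, arr1/10/12, and with CK, and ARR3 passed in arr1/10/12, with CK, and in mock-treated versus untreated WT.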
